A study of Mus musculus with 8 samples.

Results

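The mRNAs of the cytosolic ribosomal proteins were examined in the livers of 8 aged, calorie-restricted Ames dwarf mice, 1 Affymetrix U74Av2 array per mouse. All animals were female and homozygous for the Ames dwarf mutation (df/df), were fed 30% less of a standard pelleted diet than freely fed df/df females ate, had free access to water, and were 24 to 26 months old at death. With 1 group, every comparison below is between mice, and neither the dwarf genotype nor the diet is compared with anything. Ames dwarf mice lack growth hormone, prolactin and thyroid-stimulating hormone for life. Whole liver was used. In such samples fewer cells of a type and less RNA per cell cannot be told apart.

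The genes were chosen by name. A probe set was taken when the array's annotation gave it exactly 1 symbol and that symbol was Rpl or Rps with a digit, Rplp0, Rplp1, Rplp2 or Rpsa. S6 kinases and pseudogenes were left out. This gave 35 genes with 49 probe sets, of 8252 named genes and 12488 probe sets on the array. Of these genes 17 belong to the large subunit and 18 to the small subunit, and each was represented by its brightest probe set. Probe sets with a mean intensity of at least 165.2, the median of all deposited values, were bright enough to test. This left 25 ribosomal protein genes (12 large, 13 small), of 4869 named genes and 6265 probe sets tested. The 25 reached this cut with means between 213.2 and 19320, and the other 10 had means between 14.74 and 153.1. The 10 dim ones were Rpl35a, Rpl38, Rpl39, Rpl39l, Rpl7l1, Rps13, Rps14, Rps15, Rps20 and Rps27l. Rpl39l, Rpl7l1, Rps27l and Rps4l are paralogs of ribosomal proteins that the naming takes in. Those closest to the cut were Rps4l inside it, at 213.2, and Rpl7l1 outside it, at 153.1. Several members of the ribosome (Rps6, Rpl5, Rpl11, Rpl3, Rpl10, Rplp1, Rplp2 and Rps27a among them) had no tested probe set with a single symbol and have no value here.

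A ribosome joins a small subunit, which reads the mRNA, to a large subunit, which forms the peptide bond, and each contains 1 copy of most of its proteins. Cells therefore make these proteins in matched amounts, and the liver, which secretes most plasma proteins, keeps their mRNAs among its most abundant. Much of the matching is done at translation. Ribosomal protein mRNAs begin with a terminal oligopyrimidine tract, a C followed by a run of C and T, and the growth-regulating kinase mTOR releases such mRNAs for translation through the tract-binding protein Larp1. An array measures how much of each mRNA is present and is blind to that step.

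Runs of this kind were looked for at the genes' annotated starts. Of the 35 genes, 28 had an annotated start in RefSeq's promoter table (mouse build GRCm38.p6), with 37 starts in all. A run was counted as at least 6 C or T in a row, opening at a C within 10 bases of a start, whether or not C or T also precede that C. It was present in 15 of the 28 genes (53.571%), against 21.869% of the 27025 genes in the table. The windows below run from 15 bases before the start to 14 after it, on the coding strand, and are shown because they hold the feature that the family is known for. Capitals mark the run. Those of Rps18, Rps10, Rpl7a and Rps27 have one, and those of Rps3 and Rpl41 have none by this definition.
Rps18, minus strand, chr17:33955651-33955680: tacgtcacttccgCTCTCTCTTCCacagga
Rps10, minus strand, chr17:27635230-27635259: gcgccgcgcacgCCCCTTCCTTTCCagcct
Rpl7a, plus strand, chr2:26910792-26910821: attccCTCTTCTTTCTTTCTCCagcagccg
Rps27, minus strand, chr3:90213634-90213663: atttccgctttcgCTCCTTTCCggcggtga
Rps3, minus strand, chr7:99483695-99483724: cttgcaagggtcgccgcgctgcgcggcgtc
Rpl41, minus strand, chr10:128549154-128549183: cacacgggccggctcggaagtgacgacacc
The run of Rps10 counted 13 bases, that of Rps18 11 and that of Rps27 9. In Rpl7a, C and T go on before the capitals, so the place where its run begins is set by the limit of 10 bases. A missing run says only that the letters near the annotated start do not hold one, since annotated starts are often displaced from the true ones by a few bases.

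Short motifs were counted on both strands of the window from 250 bases before to 50 after each start. CCGGAAG, the core read by Ets factors, stood in 42.857% of the ribosomal protein genes and in 9.928% of all genes. AAGATGGC, the core read by Yy1, stood in 17.857% of the ribosomal protein genes and 3.19% of all genes. The TATA box TATAAA was about as frequent in the ribosomal protein genes (14.286%) as in all genes (15.667%). These are counts of letters and say nothing of binding in these livers. The tested genes with and without a run gave nearly the same value: the median correlation of a gene with the mean of the other ribosomal protein genes over the 8 mice was 0.65 in the 10 tested genes with a run and 0.65 in the 10 without.

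The arrays were checked before the values were read. The hepatocyte markers were bright on every array, with a summed intensity between 122537.8 and 179040 for the 9 of 10 listed genes that had a probe set. The array of mouse 5 stood apart in its control ratios. Arrays of this kind are primed from the 3′ end of the mRNA, so a higher signal from 3′ probes than from 5′ probes of the same control gene is a usual sign of shorter RNA. The Gapdh ratio of 3′ to 5′ was 2.67 in mouse 5 and lay between 0.794 and 1.07 in the other 7. The signal of the Gapdh 5′ probe set was 6987.2 in mouse 5 and at least 15998.4 in the others. Pyruvate carboxylase gave the same picture, with a ratio of 40.7 in mouse 5, against 2.64 to 9.17 elsewhere. Beta-actin did not, with 1.60 in mouse 5 and 1.45 to 1.998 over all arrays. The transferrin receptor ratio was 4.87 in mouse 5 and 2.09 to 8.46 over all arrays. Its 5′ signals were only 13.3 to 75.8 (16.6 in mouse 5), too dim for that ratio to decide. Control transcripts added at a fixed amount (CreX, 3′ probe set) were brighter on arrays 1 to 4, at 15553.8 to 17571.4, than on arrays 5 to 8, at 11360.7 to 12178.9. The score, its correlations and the slopes on the Gapdh ratio are given below with and without mouse 5.

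Most ribosomal protein mRNAs differed little from mouse to mouse. The standard deviation of their log2 intensities over the 8 mice had a median of 0.19 (25 genes, 0.07 to 0.42), against 0.23 over all tested genes. Among genes with a mean intensity of at least 5000 it was 0.17 for the 16 ribosomal protein genes and 0.22 for all 270 genes. In limma's test of spread, which compares the variance of each probe set with that of others of like brightness (an F test for larger variance, its p-values adjusted over all probe sets), 0 of 25 passed an adjusted p of 0.05, where the share over all probe sets was 0%. The lowest adjusted p among the 25 was 0.9885. Without adjustment 0 of 25 passed 0.05, against 6.38% of all probe sets. Since the adjusted test called no probe set on the array, it does not show that these genes are steadier than others.

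The steadiest gene was Rpsa, which encodes a small subunit protein also known as the laminin receptor precursor. Its intensities in mice 1 to 8 were 2532.3, 2581.8, 2663.6, 2661.9, 2520.4, 2795.9, 2722.9 and 2399.1, a range of 1.17-fold. Rps24, a small subunit protein whose human gene is mutated in some cases of Diamond-Blackfan anaemia, had 10265.7, 10904.8, 12316.1, 11859.7, 11780.1, 12108.2, 10110.4 and 11096.2. Its range was 1.22-fold. The name of that probe set is uncertain, because it lists the same source transcript as the probe set named Rpl7, and the 2 correlated at r = 0.72 over the mice. Another probe set named Rps24, with a mean of 92.61, was too dim to test. Rps27, a zinc finger protein of the small subunit, had 1105, 960.4, 907.7, 1076.5, 932.8, 930.7, 1034.7 and 917.5. The 3 genes had their highest values in mice 6, 3 and 1, so they did not share an order.

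At the other end of the spread stood Rpl32, a large subunit protein often used as a reference gene in expression studies. Its probe set read 366.5, 367.3, 407, 301.8, 396, 196, 228.6 and 224.7, a range of 2.08-fold. Mice 1, 2, 3 and 5 were high, mice 6 to 8 low and mouse 4 between them. The probe set is one of 6 representing a tested ribosomal protein gene whose name marks probes shared with a family of transcripts or fewer probes than usual, so its pattern need not be that of Rpl32 alone. It passed the chi-square version of the spread test, which takes the brightness trend as known (adjusted p = 0.04975), at a setting that marked 18.3% of all probe sets.

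Rps19, the small subunit gene most often mutated in human Diamond-Blackfan anaemia, had 1538.4, 1940.2, 2018.7, 2864.3, 1798.5, 3018.4, 2044.5 and 2086.5 (mean 2164 ± 512, SD, n = 8). Mice 4 and 6 were well above the rest and mouse 1 below it. The correlation of Rps19 with the mean of the others was 0.09 over 8 mice and 0.55 without mouse 5.

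**Figure D1:**
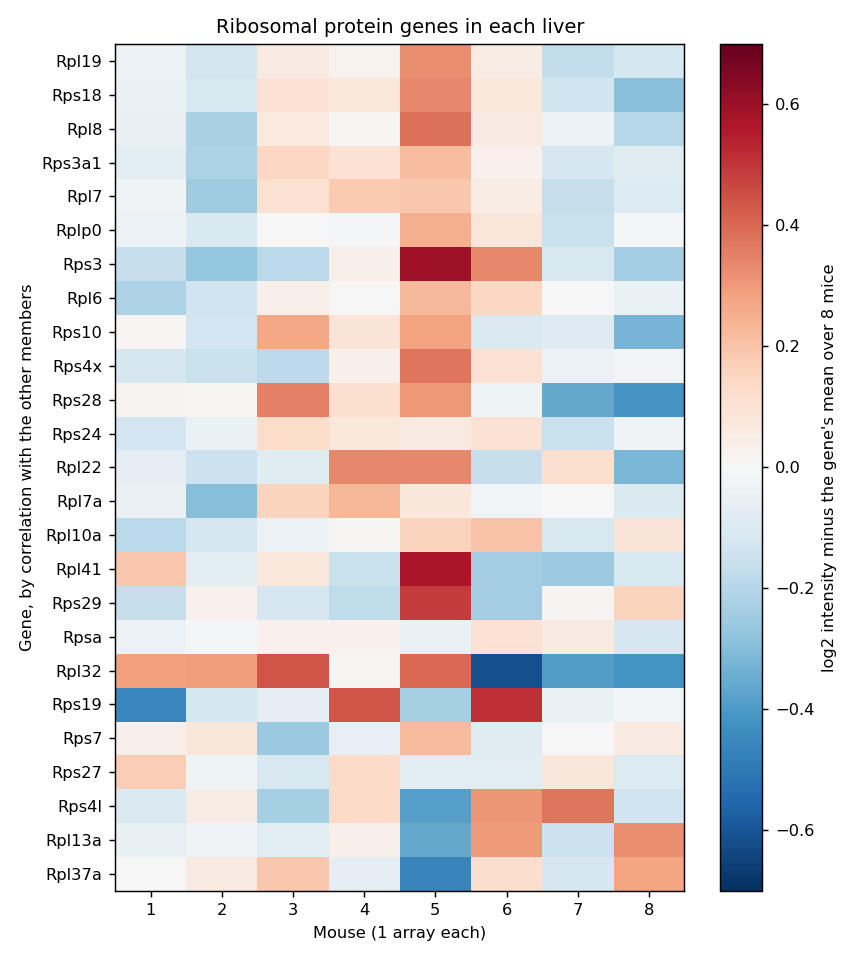
Each row is 1 of the 25 tested ribosomal protein genes and each column 1 mouse, and colour gives the deviation of the log2 intensity from the gene's own mean. Rows are ordered by the gene's correlation with the mean of the other members, from Rpl19 (0.95) to Rpl37a (-0.68). Most rows in the upper part are darkest red in mouse 5, and Rps4l, Rpl13a and Rpl37a at the bottom are darkest blue there.

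The main shared movement was toward high values in mouse 5. Of the 25 tested genes 13 (52%) had their highest value there, a position that 20.8% of all tested genes had, and 3 (12%) had their lowest value there, against 20.99% of all genes. The 13 were Rpl6, Rpl7, Rpl8, Rpl19, Rpl41, Rplp0, Rps3, Rps3a1, Rps4x, Rps7, Rps10, Rps18 and Rps29. Mouse 5 is also the animal with the odd Gapdh and pyruvate carboxylase ratios, and the part of RNA integrity in the high values was not tested.

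The large subunit members illustrate the size of the movement. Rplp0, the base of the stalk that calls in elongation factors, had 8779.5, 8397.6, 9034.8, 8962.2, 10779.5, 9609.1, 8109.7 and 8968.2 in mice 1 to 8. Rpl19, which helps bridge the subunits, had 7494.5, 7057.9, 8052.3, 7833.4, 9657.1, 8006.3, 6841.6 and 7090.6. In both, mouse 5 was the highest by a clear step and the other 7 lay close together. For Rpl19 the gap from mouse 5 to the next animal was 0.5273 of the whole range on the log2 scale, just past the critical value of Dixon's ratio for 8 values. It was the only 1 of the 25 (4%) in which a mouse stood apart in this way, against 8.69% of all genes; mouse 5 stood apart as the highest in 1.27% of all genes. Rpl8, which lies near the peptidyl transferase centre, ranged between 4937 in mouse 2 and 7550.4 in mouse 5. Rpl6 ranged between 5447.3 and 7393.3 and Rpl7 between 6763 and 9149, both with mouse 5 highest. Rpl7 and Rpl7a are distinct proteins despite their names. Rpl7a was highest in mouse 4, at 7443.7, and lowest in mouse 2, at 5138.7.

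Rpl41 encodes one of the smallest proteins known, a short basic peptide of the large subunit. As deposited, it had the largest step toward mouse 5 among large subunit members, with 21633.8, 18032.1, 19971.1, 17074.9, 28251.9, 16035.8, 15913.8 and 17624.7 (mean 19320 ± 4097, SD, n = 8). Mouse 5 was high and mouse 1 next. Like that of Rpl32, this probe set is 1 of the 6 whose names mark shared or fewer probes. The pattern need not be that of Rpl41 alone. The correlation of Rpl41 with the other members was 0.51 over 8 mice and -0.17 without mouse 5, so its likeness to the family rested on that animal. Rps29, a zinc-binding small subunit protein, had 207.4, 236.9, 213.6, 204.6, 325.3, 196.1, 235.1 and 258, highest in mouse 5 and lowest in mouse 6. Its correlation with the others was 0.21 with mouse 5 and -0.85 without it.

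Among small subunit members the largest step, as deposited, was that of Rps3, a protein of the mRNA entry channel that also has described roles in DNA repair and NF-kB signalling. Rps3 had 5036.8, 4682.1, 4951, 5788.4, 8515.9, 7124, 5222.9 and 4780.2 in mice 1 to 8 (mean 5763 ± 1365, SD, n = 8). Mouse 5 was highest, mouse 6 second and the other 6 lay between 4682.1 and 5788.4. Rps4x, encoded on the X chromosome, had 7681.7, 7480.5, 7350.2, 8553.3, 10814, 8979.3, 8092.4 and 8232.7, again with mouse 5 first and mouse 6 second. Rps18, a protein of the head of the small subunit, ranged between 9847.7 in mouse 8 and 15222.4 in mouse 5. Rps10 (5903.2 to 8973.4), Rps3a1 (6824.1 to 9223.2) and Rps7 (5347.9 to 7474.2) were also highest in mouse 5. The correlation of Rps7 with the other members was 0.03 over 8 mice and -0.77 without mouse 5. Rps28 was high in both mouse 3 and mouse 5, with 11944.7, 11857.3, 15043, 12747.9, 14566.3, 11535.6, 9194.9 and 8858.7. Mice 7 and 8 were its lowest.

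Rpl22 and Rpl10a followed the majority less closely. Rpl22, an RNA-binding large subunit protein that mouse cells can do without except in T cell development, had 318.2, 301.2, 315, 422.2, 421.3, 298.4, 360.7 and 267.7. Mice 4 and 5 were level at the top. Rpl10a, next to the exit path of the transfer RNA, ranged between 3470 in mouse 1 and 4527.5 in mouse 6.

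A minority went the opposite way in mouse 5. Rpl37a, a zinc-binding protein of the large subunit, had 5015.3, 5247.8, 5731.9, 4786.4, 3646, 5465.8, 4632.5 and 6084. Mouse 5 was the lowest and mouse 8 the highest. Rpl13a, which in human monocytes leaves the ribosome after interferon gamma to block translation of inflammatory mRNAs, had 257.2, 262.1, 253.1, 272.4, 207.9, 327.6, 239.5 and 333.3. Mice 6 and 8 were high and mouse 5 low. Rps4l, a paralog of Rps4x that the naming rule takes in, had 195.5, 217.6, 178.6, 230.2, 160.6, 260.1, 272.5 and 190.5, with mouse 5 lowest. Rpl13a and Rps4l had means of 269.1 and 213.2, not far above the cut for testing. The correlations of Rpl37a, Rpl13a and Rps4l with the other members were -0.68, -0.50 and -0.48 over 8 mice, and -0.14, -0.01 and -0.06 without mouse 5.

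How far a liver was high or low over the whole family was summarised as a score, the average of the 25 genes' log2 deviations from their own means. The scores of mice 1 to 8 were -0.05, -0.08, 0.03, 0.07, 0.17, 0.04, -0.08 and -0.09. Their range was 0.261, or 0.156 without mouse 5 and 0.543 with each array scaled to a common median. Mouse 5 had 19 of 25 genes above their own means and mouse 4 had 20, while mouse 8 had 5. Over all tested probe sets the median deviation in mice 5, 4 and 8 was -0.02, 0.02 and 0.0011. Mouse 4 had a score of 0.07 and a Gapdh ratio of 0.912, within the span of the ordinary arrays. Of its 25 genes 0 were the lowest of the 8 mice, and over all tested genes 10.08% were lowest in mouse 4.

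Large and small subunit genes ran largely in parallel. The score of the 12 large subunit genes and that of the 13 small subunit genes correlated at r = 0.78 (Spearman's rho 0.69) over the 8 mice, and at r = 0.64 without mice 5 and 7, the pair farthest from the median. Mouse 5 was the highest in both, at 0.18 and 0.16. They parted in mouse 3, where the large subunit score was 0.08 and the small subunit score -0.01, and in mouse 6, where the large subunit score was -0.0022 and the small subunit score 0.08. These are descriptions of sets of genes and carry no p-value, and all the genes of a mouse share 1 array. The small subunit set counts the probe set named Rps24, whose name is uncertain.

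**Figure D2:**
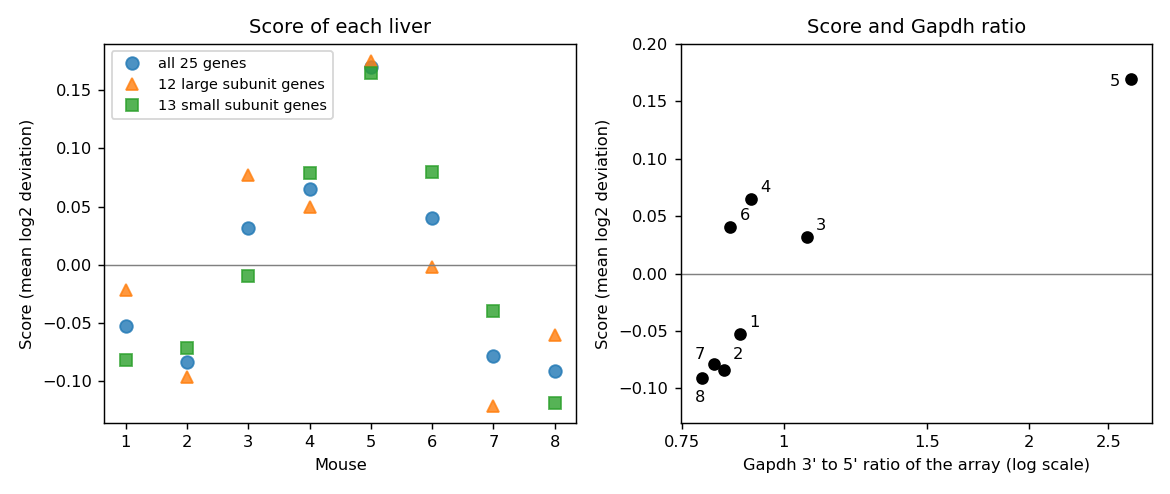
Left, the score (mean log2 deviation) of each of the 8 mice over all 25 tested genes, the 12 of the large subunit and the 13 of the small subunit. Right, the score over 25 genes against the Gapdh 3′ to 5′ ratio of the array on a log axis, with mice numbered. Mouse 5 is the farthest point on both axes, and the other 7 lie between ratios of 0.794 and 1.07.

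Between single genes the agreement was uneven. The correlation over the 8 mice averaged 0.21 over all pairs of the 25 genes and ranged between -0.86 (Rpl41 with Rps4l) and 0.96 (Rps3a1 with Rpl7). It was above 0 in 67% of pairs. Over all tested genes the average was 0.0031. Bright members agreed more, with an average of 0.44 among the 16 with a mean of at least 5000. The same average was not taken over all 270 genes of that brightness, so 0.44 has no matched value beside it. Set against the mean of the other members, 16 of 25 genes had a correlation above 0.5 and 4 were below 0 (Rpl37a, Rpl13a, Rps4l and Rps27). The highest were Rpl19 (0.95), Rps18 (0.94), Rpl8 (0.91) and Rps3a1 (0.91). Without mouse 5 these 4, picked as the highest over all 8 mice, were at 0.91, 0.88, 0.80 and 0.87. Of the 25 genes 14 were then above 0.5 and 8 below 0. The average over all pairs was 0.15 without mouse 5.

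The scaling of the arrays bears on the direction in mouse 5. As deposited, 19 of the 25 genes were higher in mouse 5 than the mean of the other 7 and 6 lower. Of all genes 47.36% were higher. The median log2 difference was 0.26 over the 25, against -0.03 over all genes. Scaling each array to a common median raises mouse 5 by 0.18 log2 for every gene. With it 21 of the 25 were higher, against 67.49% of all genes. The median difference was then 0.46, against 0.18 over all genes. With quantile normalization 17 of the 25 were higher, against 55.51% of all genes. The median difference was 0.09, against 0.05 over all genes, so most of the offset from other genes went. Rps3 was higher in mouse 5 by 0.68 as deposited, 0.89 after median scaling and 0.53 after quantile normalization, and Rpl41 by 0.66, 0.86 and 0.44. After quantile normalization the step of Rps29 (0.70) was larger than that of Rps3, and those of Rpl32 (0.58) and Rpl22 (0.53) were larger than that of Rpl41. Rps24 and Rpl7a, slightly higher as deposited (0.07 and 0.09), were slightly lower after quantile normalization (-0.08 and -0.07). Rps27 and Rpsa, slightly lower as deposited (-0.08 and -0.06), were slightly higher after median scaling (0.12 and 0.15).

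The relation to the Gapdh ratio was then fitted for every tested probe set with limma, as a slope of log2 intensity on the log2 ratio of the array over the 8 mice. Of the 25 ribosomal protein genes 0 passed an adjusted p of 0.05 in either direction, where 0.176% of all probe sets passed as higher and 1.63% as lower. The lowest adjusted p was 0.07055 (limma), that of Rpl41, with a slope of 0.42 ± 0.10 (SE). Without adjustment 7 of 25 (28%) were higher with the ratio at 0.05, against 6.37% of all probe sets, and 1 (4%) was lower, against 10.2%. The median slope was 0.18 over the 25 and -0.02 over all probe sets, and 19 of 25 slopes were above 0, against 46.59% of all. The largest after Rpl41 were those of Rps3 (0.40 ± 0.13), Rpl32 (0.37 ± 0.22) and Rps29 (0.31 ± 0.14), and the lowest was that of Rpl37a (-0.31 ± 0.11). Mouse 5 alone spans most of the ratio, so such a slope is mainly mouse 5 against the rest. Without mouse 5 the unadjusted count was 2 of 25 higher (2.61% of all probe sets) and 0 lower (4.51%), and the median slope was 0.17, against -0.03 over all. With quantile normalization it was 2 higher (7.14%) and 1 lower (7.36%), and the median slope was 0.05, against 0.03 over all. With median scaling it was 15 higher (16.7%) and 0 lower (5.16%), and the median slope was 0.31, against 0.11 over all. On the beta-actin ratio it was 0 higher and 0 lower, with a median slope of 0.0089, against 0.015 over all. On the pyruvate carboxylase ratio it was 7 higher (5.47%) and 1 lower (9%), with a median slope of 0.09, against -0.0093 over all. Rpl41 passed after median scaling (adjusted p = 0.04249, limma), and Rps3 passed without mouse 6 (adjusted p = 0.0418, limma).

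Across the 8 mice the score correlated with the log2 Gapdh ratio at r = 0.82 (rho 0.86), and at r = 0.75 over the 6 left when mice 3 and 5 were taken out. With the pyruvate carboxylase ratio it was r = 0.90 (rho 0.83), and 0.77 without mice 5 and 8. With the beta-actin ratio it was 0.03 (rho -0.05), and -0.63 without mice 3 and 8. With the median intensity of the array it was -0.77 (rho -0.64), and -0.25 without mice 5 and 8. No test was made of these, since the genes were chosen with results of the same arrays known. RNA integrity and a true difference of mouse 5 cannot be told apart with 1 such animal.

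**Figure D3:**
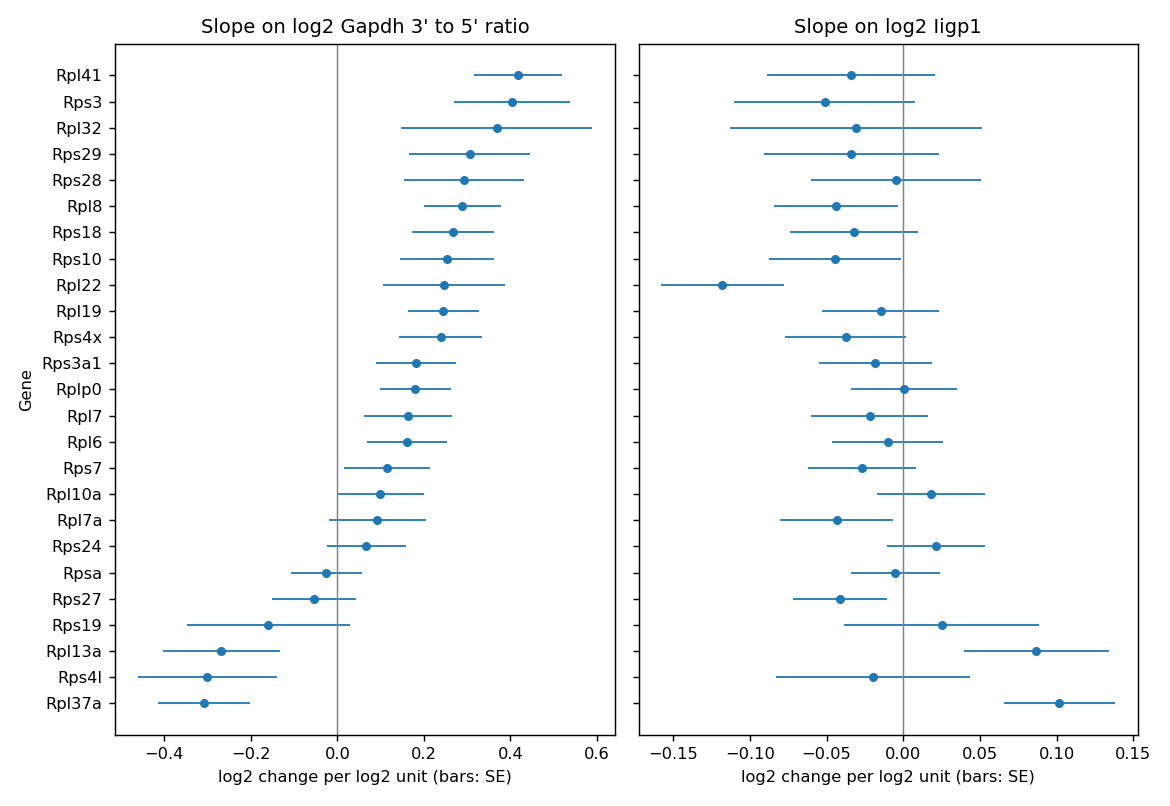
Slopes with standard errors of the 25 tested genes from limma over the 8 mice. Left, log2 intensity per unit of the log2 Gapdh 3′ to 5′ ratio, from Rpl41 (0.42) at the top to Rpl37a (-0.31) at the bottom; right, per unit of log2 Iigp1 in the same order of genes. No slope passed an adjusted p of 0.05.

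Interferon-induced genes differed widely between these livers, with a summed intensity of 3173 to 60374.3 for 11 of 12 listed genes. The family was therefore also set against Iigp1, a GTPase induced by interferon gamma that acts against intracellular pathogens. Iigp1 intensities in mice 1 to 8 were 3256.2, 10908.2, 11521.1, 1275.6, 1461.7, 15220.4, 839.4 and 14442.2, high in mice 2, 3, 6 and 8 and low in mice 4, 5 and 7. Of the 25 ribosomal protein genes 0 had a slope on log2 Iigp1 at an adjusted p of 0.05 (limma), where 0.974% of all probe sets passed as higher and 0.0798% as lower. Without adjustment 1 was higher (8.17% of all probe sets were) and 1 lower (7.92% were). The 1 that was lower was Rpl22, with -0.12 ± 0.04 log2 per log2 unit of Iigp1 (limma, adjusted p = 0.1856), and the 1 that was higher was Rpl37a, with 0.10 ± 0.04 (adjusted p = 0.2039). Without mouse 5 the slopes were -0.10 ± 0.04 and 0.07 ± 0.03. Rpl13a, the member with the described link to interferon gamma, had a slope of 0.09 ± 0.05 (limma, adjusted p = 0.3956).

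Over the 25 genes the slopes lay between -0.12 and 0.10, with a median of -0.02, while Iigp1 itself spanned 839.4 to 15220.4. The 11 of 15 listed macrophage markers that had a probe set had a summed intensity between 5393 and 32507.5, highest in mouse 6. The score of the 10 that were tested correlated with that of the ribosomal proteins at r = -0.20. The summed intensity in mouse 5 was 5875.1, near the low end.

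Further probe sets named for the same gene gave a second measurement through other probes. Of the 35 genes 4 had a further tested probe set, which made 5 pairs, and their correlations over the 8 mice were compared by an exact two-sided permutation test over all 40320 pairings. None passed after adjustment over the 5 as deposited. The pair of bright Rps28 probe sets agreed best, at r = 0.80 (rho 0.79, exact permutation p = 0.01684, adjusted 0.0842), and at r = 0.76 without mouse 5. It passed with median scaling (exact permutation test, adjusted p = 0.02059), with the stricter filter, where 2 pairs were compared (adjusted p = 0.03368), and without mouse 7 (adjusted p = 0.04067). The second of these read 6808.5, 6398.3, 8842, 7999.1, 10111.1, 7372.8, 7157.8 and 5834.7, and like the first it was high in mice 3 and 5 and lowest in mouse 8. Another, dim Rps28 probe set agreed at r = 0.40 (rho 0.45). The brightest Rps28 probe set is 1 of the 6 whose names mark shared or fewer probes, so its pattern need not be that of Rps28 alone. With such probe sets left out, no Rps28 pair was left and 2 pairs of other genes remained.

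For Rpl10a and Rpl22 the second probe set parted from the first in mouse 5, though not in that mouse alone. In mouse 5 the brightest Rpl10a probe set read 4396.3, its second highest value, while the other read 1272.7, its lowest (r = -0.19 over the mice, rho 0.17, exact permutation p = 0.6444, and r = 0.20 without mouse 5). The name of that dimmer Rpl10a probe set marks probes shared with a family of transcripts. This probe set was nearly as low in mouse 3, at 1349.7, where the brightest read 3840.7. In mouse 5 the brightest Rpl22 probe set read 421.3 and the other 151.9, its lowest (r = -0.65, rho -0.40, exact permutation p = 0.08534, adjusted 0.2134). In mouse 4 the Rpl22 pair read 422.2 and 171.2. Without mouse 5 the r of the Rpl22 pair was -0.44. The Rpl22 values of the dimmer probe set were 241.7, 210.1, 227.8, 171.2, 151.9, 174.8, 214 and 219.8. Where along the mRNA each probe set lies was not analysed here. For Rpl19 the second probe set was dim, with a mean of 170, and its values of 75.3 and 72.6 in mice 1 and 4 stood far below the other 6 (r = 0.02, rho -0.19).

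**Figure D4:**
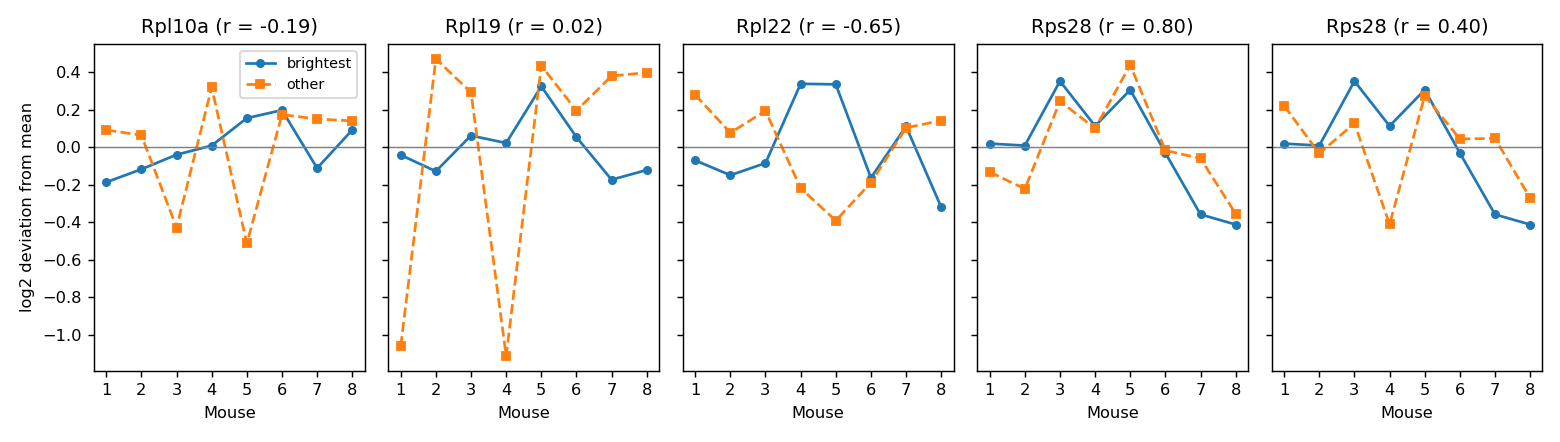
Log2 deviation from the probe set's own mean in each of the 8 mice for the brightest probe set of a gene (circles) and another of the same gene (squares), with Pearson's r over the mice above each panel. The bright Rps28 pair runs together (0.80), and the Rpl22 pair parts most in mice 4 and 5 (-0.65).

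Other genes of translation were described by their correlation with the ribosomal protein score over the 8 mice, beside a median of -0.06 and a share of 12.51% above 0.5 over the 4844 tested genes outside the family. The list of elongation factors had a median of 0.50, with 4 of 7 above 0.5. It also holds Tpt1 and the release factors Gspt1 (0.64) and Etf1 (0.502), and of the 4 only Eef1a1 is itself an elongation factor. Eef1d was at -0.17 and Eef1b2 at -0.45. The 3 brightest were Eef1a1, which carries transfer RNA to the ribosome (0.63), Tpt1, the translationally controlled tumour protein (0.62), and Eef2, the translocase (0.01). Eef1a1 and Tpt1 were highest in mouse 5, at 26785.3 and 22234.4. Initiation factors were mixed, with a median of 0.07 and 6 of 24 above 0.5. Their brightest were Eif4a2, an RNA helicase (-0.23), Eif4ebp2, which restrains initiation at the cap (0.46), and Pabpc1, the poly(A)-binding protein (-0.55).

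Factors that meet the nascent chain had a median of 0.43, with 4 of 8 above 0.5. Btf3 (0.78) and Naca (0.59), the pair that forms the nascent polypeptide-associated complex, were among them, and Sec61a1, the channel of the endoplasmic reticulum, was not (-0.18). Other mRNAs known to carry a terminal oligopyrimidine tract, a list that overlaps the ones above, had a median of 0.44 with 5 of 12 above 0.5. Mitochondrial ribosomal proteins, which serve the separate ribosome of mitochondria, had a median of 0.25 with 15 of 57 above 0.5. Of their brightest, Mrpl52 correlated at 0.59, Mrpl18 at 0.69 and Mrpl51 at 0.48.

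Ribosome assembly factors had a median of 0.21 with 6 of 30 above 0.5. Npm1 and Ncl, both abundant proteins of the nucleolus, went opposite ways, at 0.63 and -0.63. Ncl was at 1489.5 in mouse 5 and at 2337.6 or more in the others. Nop10, part of the particles that modify ribosomal RNA, was at 0.07. The mTOR pathway list, of which no S6 kinase was tested, had a median of -0.14 with 0 of 10 above 0.5. It also holds Pdk1, a pyruvate dehydrogenase kinase (0.35), and Max, the partner of Myc (-0.39). Its brightest were Larp1 (-0.13), Akt2 (-0.15) and Tsc2 (0.14). The p53 checkpoint genes that answer to free ribosomal proteins had a median of -0.19 with 0 of 4 above 0.5. Of these, Mdm2 was at 0.31, Mdm4 at -0.26 and Cdkn1a at -0.12. In none of these lists did a gene pass the slope on the Gapdh ratio, and Cdkn1a alone passed that on Iigp1 (0.33 log2 per log2 unit, limma, adjusted p = 0.04682). The list of ubiquitin fusion and ribosome-associated proteins had no tested gene. All of these correlations share the 8 arrays with the score.

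Without mouse 5 the medians of most lists stood closer to that of other genes, the p53 checkpoint genes excepted. The median over the 4844 genes outside the family was then -0.02, with 8.092% above 0.5. The elongation factor list had a median of 0.25 with 0 of 7 above 0.5. Nascent chain factors had 0.16 with 1 of 8, and other terminal oligopyrimidine mRNAs 0.28 with 2 of 12. Mitochondrial ribosomal proteins had -0.02 with 4 of 57, initiation factors 0.09 with 2 of 24 and ribosome assembly factors 0.11 with 6 of 30. The mTOR pathway list had -0.08 with 2 of 10 and the p53 checkpoint genes 0.14 with 0 of 4. Btf3 stayed above 0.5, at 0.57. Eef1a1 was at 0.31, Tpt1 at 0.25, Naca at 0.43 and Npm1 at 0.40. Ncl changed sign, at 0.60, while Pabpc1 was at -0.70.

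**Figure D5:**
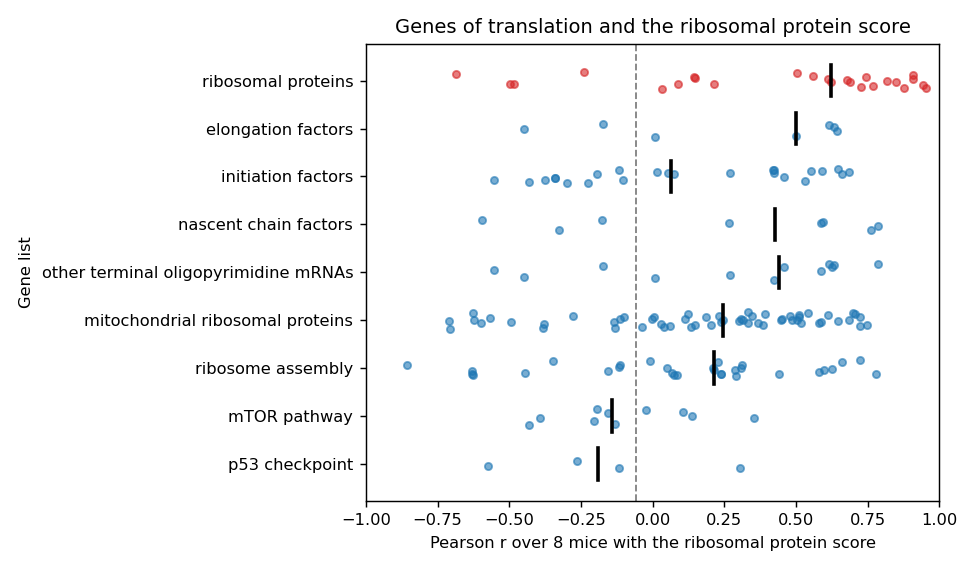
Pearson's r over the 8 mice with the ribosomal protein score for each tested gene of 8 lists of translation genes, and at the top the r of each of the 25 ribosomal proteins with the mean of the others. Short vertical lines mark list medians, from 0.50 for the elongation factor list, which includes Tpt1, Gspt1 and Etf1, to -0.19 for p53 checkpoint genes. The dashed line marks -0.06, the median over 4844 other genes.

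The tested genes outside the family most like its score were Ddx39b (0.97), Gnas (0.95), Anapc5 (0.95), Carm1 (0.95), Mylk (0.94), Vtn (0.92), Klf13 (0.92), Gm15772 (0.92), Ewsr1 (0.91) and C920021L13Rik (0.90). Ddx39b, an RNA helicase of mRNA splicing and export, had 1366.6, 1255.9, 1408.2, 1461.7, 1606.4, 1479.5, 1293.6 and 1297.9 in mice 1 to 8, and its r without mouse 5 was 0.94. Those least like it were Snrpa1 (-0.96), Dlg1 (-0.94), Bag3 (-0.94), Srp54b (-0.94) and Ssr1 (-0.93). Snrpa1, a protein of the spliceosome, had 255.1, 245.5, 185.2, 185.3, 135.1, 217.9, 255.2 and 260.5. The 10 most alike were all highest in mouse 5 and the 5 least alike were all lowest there. Without mouse 5 the r of the 10 lay between 0.77 and 0.94, and that of the 5 between -0.93 and -0.86. The values rank 4844 genes over 8 mice, and no test was made of them.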

How the data were processed

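Liver RNA of 8 mice was hybridised to 1 Affymetrix U74Av2 array per mouse, per the labels. The deposited table holds the authors' values, 1 linear intensity per probe set and array, and no source used here names the software that made them. Means trimmed by 2% at each end agreed between arrays within 0.014%, so the deposited intensity counts as already scaled between arrays. Intensities under 37.2, the 25th percentile of the table, were set to it before log2 was taken. No value of a tested ribosomal protein gene lay at the floor. The 66 control probe sets were left out, and probe sets with a mean under 165.2 were not tested. Platform annotation named 1 gene for 10855 probe sets, more than 1 for 396 and none for 1237. A symbol was checked by Entrez identifier in a mouse gene list where it could be (10839 found, 0 changed). Probe sets with several symbols were not named. This left out 26 further ribosomal protein symbols whose tested probe sets also list predicted genes or pseudogenes.

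Every fit ran over all tested probe sets in R 4.3.3 with limma 3.58.1: squeezeVar (robust, with trend, prior degrees of freedom 3.802) for spread, and lmFit with eBayes (trend, robust) for slopes, with Benjamini-Hochberg adjustment over all of them at 0.05. The fits were tested on simulated data. Tables and figures were made with Python 3.11.15, pandas 2.3.3, scipy 1.17.1 and matplotlib 3.10.9. Means are over 8 mice, and the number of arrays limits the precision. The members and the gene lists were chosen with earlier results of these data known. Genes named with values in every mouse were the 8 with the largest and the 4 with the smallest SD, those with a mouse apart by Dixon's ratio, those past a test, and members with well-known roles. Outside the family they were the 10 genes most like the score, the 5 least like it, and up to 3 of the brightest of each list. Alternatives changed the scaling, the filter, the choice of probe set, the test, the covariate and the mice. Treating arrays 1 to 4 and 5 to 8 as sets, adding the shared probe sets, leaving mouse 5 out of the correlations of lists and probe set pairs, and using the pyruvate carboxylase ratio were chosen after seeing the data.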

Additional observations from a re-analysis of the deposited data

Results flagged for a closer look

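Rpl19 had mouse 5 apart from the other 7, with a gap of 0.5273 of its range on the log2 scale, at 9657.1 in mouse 5 against at most 8052.3 in the others. The quality ratios of 2 control genes had the same mouse apart: the Gapdh 3′ to 5′ ratio, with a gap of 0.7563 of its range, and the pyruvate carboxylase ratio, with a gap of 0.5442, both on the log2 scale. The part of RNA integrity in the Rpl19 value was not tested. Chance flags about 1 in 20 such sets of values.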

How the results depend on the processing

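No ribosomal protein gene passed the slope on Iigp1 under any of the 19 alternatives run, and none passed the test of spread except Rpl32, the 1 gene called by the chi-square test against the trend. The count with a slope on the Gapdh ratio was 0 as reported. It was 1 with arrays scaled to a common median (Rpl41), 1 with arrays 1 to 4 and 5 to 8 as a block (Rpl41, adjusted p = 0.04682, limma), and 2 with no filter on brightness (Rps14 and Rps15, each above the floor in mouse 5 only). Leaving out 1 mouse at a time gave 0 to 1, the 1 being Rps3 without mouse 6. The other alternatives gave 0. The range of the score, 0.261, became 0.543 with median scaling and lay between 0.156 (without mouse 5) and 0.261 with 1 mouse left out. The mean correlation between members, 0.21, was 0.42 with median scaling, 0.17 with quantile normalization, 0.15 with no filter, 0.32 with a filter of 2 times the main one, 0.24 without family probe sets, 0.12 when a gene's probe sets were averaged, 0.24 within the array sets and 0.27 with shared probe sets added. It was 0.15 to 0.23 with 1 mouse left out. The median correlation between probe sets of a gene, 0.02, was 0.19 with quantile normalization, 0.31 with the stricter filter, -0.31 without family probe sets, and -0.0619 to 0.20 with 1 mouse left out. The cause of these shifts was not tested. For both correlations a shift was judged against the SD of the values with 1 mouse left out. No paired analysis was possible because the study has 1 group.

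With 8 arrays, 1 of them with a high Gapdh ratio, detection was limited. On data simulated with the estimated variances the test of spread found none of the differences put in, so its count of 0 says nothing about stability, and the test of a slope on the Gapdh ratio missed most slopes of the size seen here. Family probe sets and probe sets with several symbols leave parts of the ribosome unmeasured or uncertain.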

Other observations

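Hnf4a, a transcription factor that defines hepatocytes, moved against the ribosomal proteins. Its intensities in mice 1 to 8 were 913.8, 1095.6, 702.5, 891, 265.9, 845.3, 1102.1 and 1308.2, lowest in mouse 5 and highest in mouse 8, and its correlation with the ribosomal protein score was -0.89, or -0.81 without mouse 5. It was the 1 gene of the hepatocyte list to pass the slope on the Gapdh ratio (lower, adjusted p = 0.001765, limma), and it did not pass without mouse 5 (adjusted p = 0.3959, limma). The brightest genes of that list, Alb, Apoa1 and Cyp2e1, correlated with the score at 0.40, 0.64 and 0.37, or 0.13, 0.47 and 0.22 without mouse 5. Hnf4a was named here after its values were seen.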
